A study of Caenorhabditis elegans with 2 samples.

Results

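Regions beside nuclear tRNA genes were examined in a chromatin immunoprecipitation and sequencing (ChIP-seq) study of ZK546.5 in the nematode Caenorhabditis elegans. A region was a member when its summit, the position of its highest signal, lay within 500 bp of a nuclear gene annotated as tRNA. The list made from both replicates pooled held 30000 regions, 29979 of them on nuclear chromosomes, and 210 of these were members. The other 29769 nuclear regions were the comparison. The samples were whole L4 larvae, the last larval stage, of strain OP231, a line with the integrated transgene wgIs231 in an unc-119(ed3) background. In this line ZK546.5 ends in a GFP-FLAG tag, and the worms were of both sexes. There was 1 group of 2 biological replicates, and every sample carried both the transgene and the unc-119 allele. The control library named in the labels was not analysed here.

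Transfer RNA genes are short genes transcribed by RNA polymerase III. Their promoter lies inside the gene, in an A box and a B box that are bound by the factor TFIIIC, which then brings TFIIIB and the polymerase to the start. Many tRNA genes exist as identical copies spread over the chromosomes, and the worm X chromosome is known to carry a large part of them. The study mapped where the tagged protein sits in the genome. The comparison made here was whether regions at tRNA genes differed from other listed regions in rank, chromosome and presence in both replicates.

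The sequences below show the place that stood highest and the kind of gene under the summits. The first is the whole region of the only member in the authors' IDR set, the set of regions that passed their test of reproducible ranks. It is on X at chrX:8036289-8036588 (ce11, plus strand, 300 bases). Capitals mark the word GCGCAGGG on either strand, a core of the motif known from recruitment sites of the worm dosage compensation complex on X.
C18A11.t2 region: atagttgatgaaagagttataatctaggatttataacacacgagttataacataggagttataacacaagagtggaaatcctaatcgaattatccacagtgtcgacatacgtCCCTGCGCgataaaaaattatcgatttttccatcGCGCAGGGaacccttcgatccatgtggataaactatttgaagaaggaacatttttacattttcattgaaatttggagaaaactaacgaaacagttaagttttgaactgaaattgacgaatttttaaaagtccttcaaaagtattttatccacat

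The next 3 are the tRNA genes, read on their own strand, under the highest members whose summit lay inside the gene. All 3 are on X, and capitals mark the B box, searched as GTTCNANNC.
C33G3.t2, tRNA-Lys: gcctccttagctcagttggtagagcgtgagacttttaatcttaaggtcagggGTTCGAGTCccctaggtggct
C04A11.t1, tRNA-Leu: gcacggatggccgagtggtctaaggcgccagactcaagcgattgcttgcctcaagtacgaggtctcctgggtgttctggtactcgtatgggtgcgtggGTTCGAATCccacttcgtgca
ZK678.t1, tRNA-Leu: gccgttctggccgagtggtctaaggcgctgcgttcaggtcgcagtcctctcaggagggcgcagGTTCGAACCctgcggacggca

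C33G3.t2 lies on the minus strand at chrX:14063946-14064018, C04A11.t1 on the plus strand at chrX:13665555-13665673, and ZK678.t1 on the plus strand at chrX:15742050-15742133. At ZK678.t1 the summit fell on base 64 of the gene, the first base of the B box. At C33G3.t2 it fell on base 43 and at C04A11.t1 on base 27, both ahead of the B box. The nuclear genome holds 14 identical copies of the C33G3.t2 gene and 2 of ZK678.t1, while C04A11.t1 is a single copy. Of all 612 nuclear tRNA genes, 587 (95.9%) contain this form of the B box, and it was present in 218 (94.0%) of the 232 genes with a pooled summit within 500 bp. The word lay within 150 bp of the summit in 88 of 210 members (41.9%) and in 9.25% of other nuclear regions, a difference that follows from choosing regions beside tRNA genes.

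Members had about the signal and rank of any other listed region. The signal value is the authors', set by their peak caller, and is used here only to rank and describe regions within 1 list. How it is scaled and how deep the libraries are was not stated in the sources read here. The median signal was 13.1 in members (95% order-statistic interval 12.3 to 13.5) and 12.7 in other nuclear regions (12.7 to 12.8). The middle 50% of values ran from 11.2 to 15.3 in members and from 11.1 to 15.2 in the others. The pooled list itself ended at 9.83, so both groups lay mostly close to its lower end. The lowest member had a signal of 9.90 and the highest 70.5, while the other regions reached 1072.

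Of the 210 members, 10 (4.76%, 95% exact interval 2.31% to 8.58%) were among the top 1000 of the pooled list, against 3.26% of other nuclear regions. The background over all nuclear regions was 3.27%. In the top 5000 were 41 members (19.5%, 14.4% to 25.5%), against 16.6% of the others, and in the top 10000 were 74 (35.2%, 28.8% to 42.1%), against 33.3%. Each member interval included the share of the other regions. In the lists of the single replicates the order of the shares was the other way round, with 2.39% of members and 3.26% of other regions in the top 1000 of replicate 1, and 2.88% and 3.27% in that of replicate 2. The IDR set held 1 member (0.476%, 0.0121% to 2.62%), and its background was 0.244% of nuclear regions. Regions are not replicates of the worms, so no p-value is given. The intervals cover only the counting of regions.

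**Figure D1:**
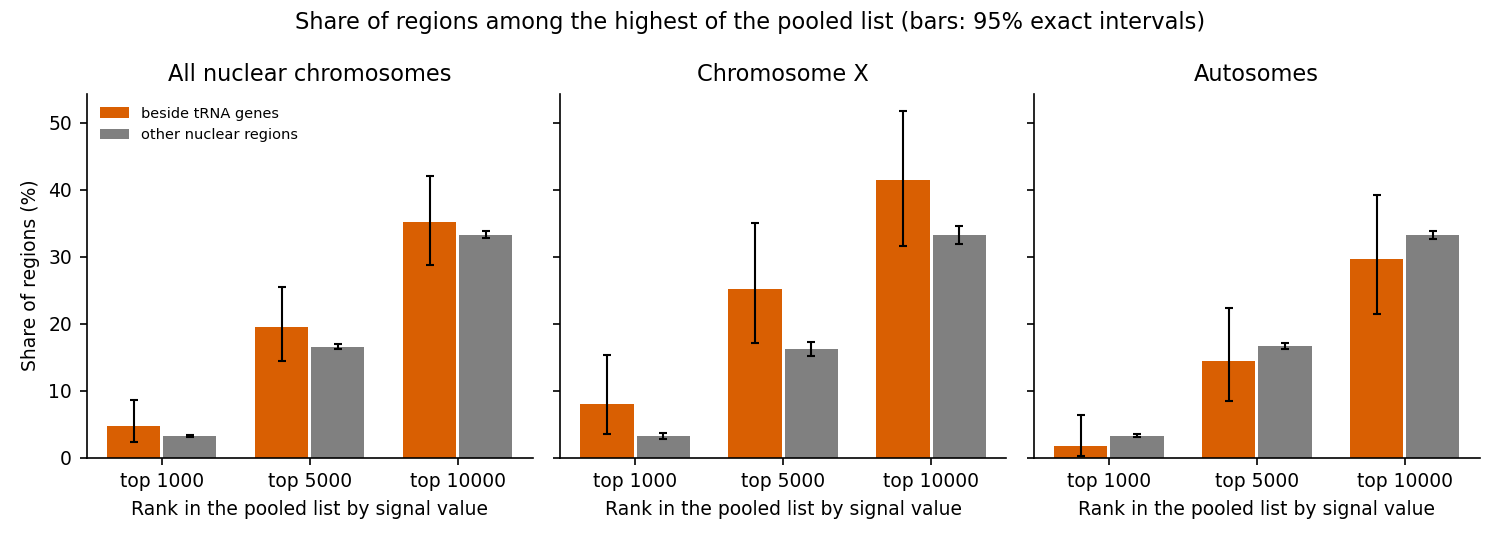
Share of regions (percent, y axis) among the top 1000, 5000 and 10000 of the pooled list by signal value (x axis), for regions beside tRNA genes (orange) and other nuclear regions (grey), on all nuclear chromosomes, X and autosomes. Error bars are 95% exact binomial intervals; on X the share in the top 1000 is 8.08% beside tRNA genes and 3.23% in the others, and on the autosomes it is 1.80% and 3.26%.

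Chromosome X held 99 of the 210 members (47.1%, 40.2% to 54.1%), against 17.1% of other nuclear regions and 17.7% of the nuclear length. The X chromosome also carries 276 of the 612 nuclear tRNA genes (45.1%), so the members were spread over the chromosomes much as the genes are. Chromosomes I, II, III, IV and V held 25, 24, 20, 19 and 23 members and 66, 57, 64, 71 and 78 tRNA genes. On each chromosome the share of tRNA genes lay inside the interval of the member share.

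**Figure D2:**
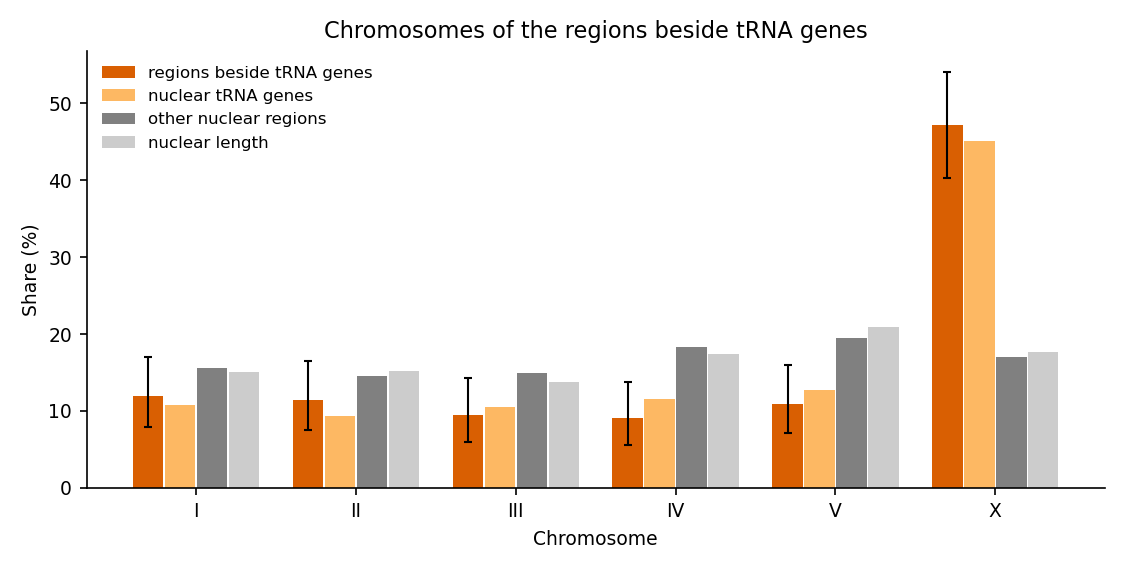
Share (percent, y axis) of regions beside tRNA genes, of nuclear tRNA genes, of other nuclear regions and of nuclear length on each chromosome (x axis). Error bars on the first are 95% exact binomial intervals; X stands at 47.1% of regions beside tRNA genes and 45.1% of tRNA genes, against 17.1% of other regions.

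The higher ranks among members were mostly on X in the pooled list. There, 8 of the 99 X members (8.08%, 3.55% to 15.3%) were in the top 1000, against 3.23% of other X regions and a background of 3.32% over all X regions. On the autosomes 2 of 111 (1.80%, 0.219% to 6.36%) were, against 3.26% of the others. The X interval lay above the share of other X regions, and the intervals of the member shares on X and on the autosomes overlapped. In the lists of the single replicates the X shares were closer to those of other X regions. In replicate 1, 3 of 98 X members (3.06%) were in the top 1000, against 3.01% of other X regions, and in replicate 2, 5 of 92 (5.43%) were, against 3.45%. Median signals on X were 13.2 in members and 12.7 in the others, and on the autosomes 12.9 in members and 12.7 in the others.

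Taken over all nuclear chromosomes, region summits were denser on tRNA genes and in the first 100 bp beside them than elsewhere. The 500 bp windows and the genes make up 0.571% of the nuclear length and held 0.700% of the pooled nuclear regions, 210 regions where 171 would be expected by length. Inside the genes the pooled list had 25 summits, or 5.45 per 10 kb, and at 1 to 100 bp it had 53, or 4.46 per 10 kb. Over the nuclear genome the density was 2.99 per 10 kb. Farther out, in steps of 100 bp up to 500 bp, it was 3.78, 2.32, 3.13 and 3.74 per 10 kb, with no even fall with distance. In the first 100 bp the chromosomes differed, with 6.16 per 10 kb on X and 3.06 on the autosomes, where the whole set of autosomes had 3.004.

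Both replicate lists, which come from separate libraries, had the same form over all nuclear chromosomes. Replicate 1 had 31 summits inside tRNA genes (6.76 per 10 kb) and replicate 2 had 33 (7.20 per 10 kb), against 13.7 expected by length in each. At 1 to 100 bp they had 55 and 57 summits, against 35.6 expected in each. On the autosomes this step had 3.52 per 10 kb in replicate 1 and 4.44 in replicate 2, and on X 5.97 and 5.23. The pooled list is made from both libraries and is not a further observation. On X the density inside the genes was 7.27 per 10 kb in replicate 1 and 6.79 in replicate 2, and on the autosomes 6.35 and 7.54. The density of summits at these genes in control DNA was not analysed here.

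**Figure D3:**
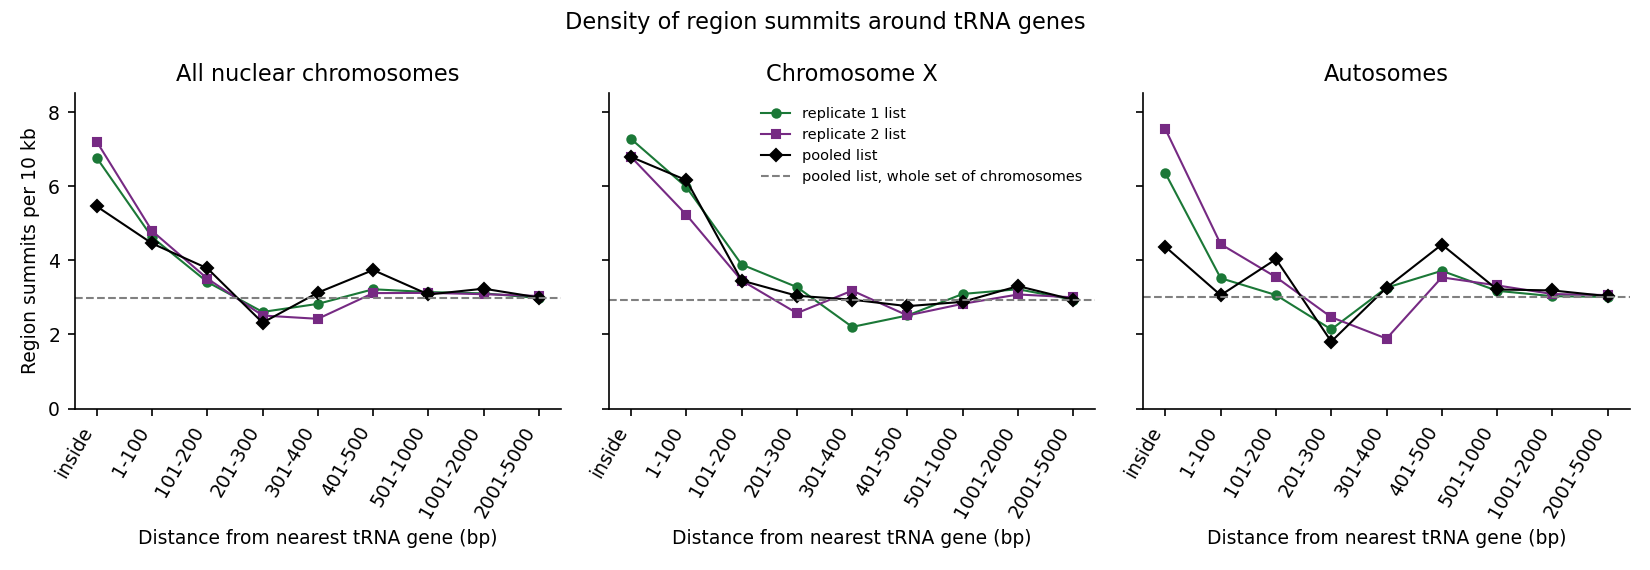
Region summits per 10 kb (y axis) at increasing distance from the nearest tRNA gene (bp, x axis) in the replicate 1, replicate 2 and pooled lists, for all nuclear chromosomes, X and autosomes; the dashed line is the density of the pooled list over that whole set of chromosomes. Over all nuclear chromosomes the density inside tRNA genes is 6.76 in replicate 1 and 7.20 in replicate 2, and the steps past 200 bp lie between 2.32 and 3.74, around the dashed line at 2.99.

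Few tRNA genes had a summit inside the gene in both replicates. A summit inside the gene was found at 31 of 612 genes in replicate 1 and at 33 in replicate 2, and 4 genes were in both, which is 12.9% of those in replicate 1 and 12.1% of those in replicate 2. Over all tRNA genes, 5.07% had such a summit in replicate 1 and 5.39% in replicate 2. Within 100 bp the counts were 88 and 92 genes, with 20 in both (22.7% of replicate 1 and 21.7% of replicate 2), where 14.4% and 15.0% of all tRNA genes had a summit. Within 500 bp they were 234 and 215 genes, with 93 in both (39.7% of replicate 1 and 43.3% of replicate 2), where 38.2% and 35.1% of all tRNA genes had a summit. The overlap was above the share over all tRNA genes at each of these distances, by the least within 500 bp, and no test of it was made.

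Base composition moved with the distance. The median GC content of the 150 bp on each side of the summit was 37.2% in members and 32.2% in other nuclear regions. It was 41.5% for the 25 members with the summit inside the gene, 40.2% within 100 bp and 34.2% from there to 500 bp. Windows centred on all 612 nuclear tRNA genes had a median of 41.5%, and the nuclear genome has 35.4% GC. The part of base composition in the density of summits was not tested. Of the 612 genes 469 have an identical copy, with up to 29 copies of 1 sequence, and whether reads from such copies were kept was not stated in the sources read here. Summits inside the gene made up 5 of 41 members at single-copy genes (12.2%), 4 of 41 at genes with 2 to 5 copies (9.76%), 5 of 34 with 6 to 10 (14.7%) and 11 of 94 with over 10 (11.7%). The median distance from the summit to the gene was 207, 288, 178.5 and 95.5 bp in the same order of copy number.

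Summits lay on both sides of the genes. Inside the gene were 25 members (11.9%), upstream 94 (44.8%) and downstream 91 (43.3%), with median signals of 15.3, 13.1 and 12.8. In the first 100 bp there were 25 upstream and 28 downstream. The median distance was 158 bp. The members had 199 different nearest tRNA genes, of which 11 were nearest to more than 1 member, and 36 members had at least 2 tRNA genes within 500 bp. Members therefore do not stand for as many separate genes. At a protein-coding promoter, taken as the 500 bp ahead of a start and the 100 bp after it, were 26 members (12.4%, 8.25% to 17.6%), against 16.01% of other nuclear regions. Inside an annotated protein-coding gene were 104 members (49.5%, 42.6% to 56.5%), against 59.9% of the others. Just inside the 500 bp limit were regions near F10C1.t2 at 496 bp and R02E12.t1 at 495 bp, with signals of 13.5 and 13.2. Just outside were regions near sup-7 at 504 bp and F45G2.t1 at 505 bp, with signals of 9.99 and 16.6.

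Presence in both replicates was that of other listed regions. A pooled region was at the same place in a replicate when its summit lay inside a region of that replicate's list. Of the 210 members, 39 (18.6%, 13.6% to 24.5%) were listed in both replicates, against 17.1% of other nuclear regions, and the background over all nuclear regions was 17.1%. Replicate 1 listed 121 members (57.6%) and 57.6% of the others, and replicate 2 listed 89 (42.4%) and 42.5% of the others. A further 39 members were in neither. At ranks 1 to 1000, 7 of 10 members were in both replicates, against 73.2% of other regions. Past rank 1000 and up to 5000 it was 15 of 31 (48.4%), against 42.2%, from there to rank 15000 it was 13 of 71 (18.3%), against 19.4%, and below that 4 of 98 (4.08%), against 5.26%. Members within 100 bp of the gene were in both replicates in 22 of 78 cases (28.2%, 18.6% to 39.5%), and those farther out, up to 500 bp, in 17 of 132 (12.9%, 7.68% to 19.8%). This division at 100 bp was made after the density was seen.

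Over the 39 members in both replicates the signals of the replicates were not ordered alike, with a Spearman rho of -0.151, and rho was 0.0726 over the 5097 other regions in both. Without the IDR peak it was -0.245 over 38 members. The Pearson correlation of log2 signals was 0.273 in these members, 0.427 in the other regions and -0.276 in members without the IDR peak. Only regions listed in all 3 lists enter these values, so they do not measure how well the replicates match in general. They describe sites of the same 2 libraries. In the top 1000 of both replicates and of the pooled list there was 1 member, C18A11.t2. In the top 1000 of replicate 1 there were 5 members and in that of replicate 2 there were 6, and 6 members had such a rank in 1 replicate while the other did not list the place.

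**Figure D4:**
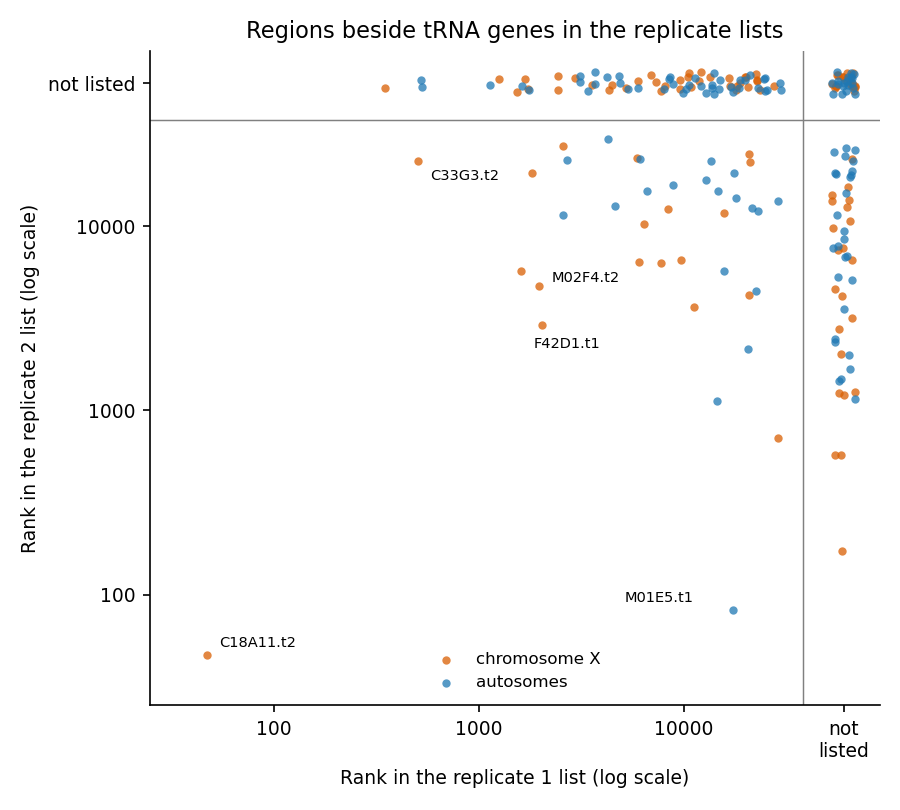
Rank of each region beside a tRNA gene in the replicate 1 list (x axis, log scale) and the replicate 2 list (y axis, log scale), with regions that a replicate did not list beyond the grey lines; colours give X and autosomes. C18A11.t2 stands alone at rank 47 in both lists, while M01E5.t1 has rank 82 in replicate 2 and rank 17360 in replicate 1.

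The strongest member was the region beside C18A11.t2, a tRNA-Arg gene on X. Its signal was 44.8 in replicate 1, 29.7 in replicate 2 and 70.5 in the pooled list, and it ranked 47 in all 3 lists. The summit, at position 8036439, was 246 bp beyond the downstream end of the gene, and the sequence of the region holds no part of the tRNA gene. The tRNA gene lies at chrX:8036685-8036757 on the minus strand, within the span of the non-coding RNA gene C18A11.13 on the opposite strand. The region holds GCGCAGGG on the plus strand over the summit itself, beginning 4 bp before it, and on the minus strand beginning 38 bp before the summit. The word was within 150 bp of the summit in 2 of 99 X members and 0.315% of other X regions, and in 0.131% of other nuclear regions. It was searched with the place of this region on X already known. The other member with the word was beside F38G1.t2 on X, where it began 64 bp after the summit at chrX:489998-490025, in the stretch below. That region had a signal of 16.3 and ranked 5420 in the pooled list, 20799 in replicate 1 and 4257 in replicate 2.
F38G1.t2 site: aatacaataaGCGCAGGGaggtggtgaa

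The next 3 members on X lay closer to the gene than C18A11.t2 and ranked lower in both replicates. F42D1.t1, a tRNA-Cys gene 33 bp from the summit, had signals of 14.2 in replicate 1, 9.92 in replicate 2 and 26.4 in the pooled list, with ranks of 2035, 2903 and 258. M02F4.t2, a tRNA-Glu gene at 29 bp, had signals of 14.3, 8.92 and 26.1 in the same order of lists. F12D9.t6, another tRNA-Cys gene at 37 bp, had signals of 14.7, 8.52 and 24.0. These 3 places were listed in both replicates at ranks from 1602 to 5752. F12D9.t6 has 2 tRNA genes within 500 bp of its summit, and the neighbouring member at F12D9.t5, a tRNA-Arg gene, had a pooled signal of 22.3 and 15.3 in replicate 1 and was not listed in replicate 2. A further member at F12D9.t2, a tRNA-Glu gene, had 20.2 in the pooled list and 11.5 in replicate 2 and was not listed in replicate 1.

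Several leading members rested on 1 replicate. M01E5.t1, a tRNA-Lys gene on chromosome I, had a signal of 19.5 in replicate 2 (rank 82) and of 8.53 in replicate 1 (rank 17360), with 29.99 in the pooled list. Y38E10A.t1, a tRNA-Ala gene on chromosome II, had 17.4 in replicate 1 (rank 530) at the upstream of its 2 members and was not listed there in replicate 2, with 27.1 in the pooled list. Both of its members were at protein-coding promoters, with summits 305 and 445 bp from the tRNA gene. The starts of Y38E10A.22 and Y38E10A.24 were closer, at 199 and 205 bp. C33G3.t2 had 17.6 in replicate 1 (rank 502) and 5.36 in replicate 2 (rank 22634). At C04A11.t1 replicate 2 had 11.6 and replicate 1 listed no region, and at ZK678.t1 replicate 2 had 13.1 (rank 570) and replicate 1 listed none. T06H11.t1, a tRNA-Ser gene 231 bp from the summit, completed the 10 members of the pooled top 1000, with 9.81 in replicate 1, 9.44 in replicate 2 and 22.2 in the pooled list.

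The next members had pooled signals from 19.1 to 21.6. They were Y53C12A.t1 (tRNA-Phe, 21.6), the second region at Y38E10A.t1 (20.6), C16D9.t4 (tRNA-Tyr, 20.1), W03G11.t1 (tRNA-Lys, 19.8), T23F1.t1 (tRNA-Lys, 19.6), Y105C5B.t3 (tRNA-Glu, 19.3), F35H8.t1 (tRNA-Arg, 19.2) and rte-1 (tRNA-Glu, 19.1). Together with F12D9.t2 and ZK678.t1 these are the members at ranks from 1019 to 2233 of the pooled list. Of the 20 highest members, 12 are on X, where 118 of 276 tRNA genes had a pooled summit within 500 bp.

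Counted by genes, 232 of 612 nuclear tRNA genes (37.9%, 34.05% to 41.9%) had a pooled summit within 500 bp, and 78 had one in all 3 lists. For scale, a summit in all 3 lists was found at 65 of 346 snoRNA genes, 24 of 129 snRNA genes and 33 of 261 miRNA genes. It was also found at 1865 of 19973 protein-coding starts, and no test between these classes was made. The share of tRNA genes with a pooled summit was 118 of 276 on X (42.8%, 36.8% to 48.8%) and 114 of 336 on the autosomes (33.9%, 28.9% to 39.3%). Genes inside a protein-coding gene numbered 290 and had a share of 34.5%, and the other 322 had 41.0%. By identical copies the share was 31.5% of 143 single-copy genes (24.0% to 39.8%) and 51.2% of 82 genes with 2 to 5 copies (39.9% to 62.4%). It was 37.0% of 100 genes with 6 to 10 copies and 37.6% of 287 with over 10. The intervals of the first 2 groups did not overlap, but only narrowly, with ends at 39.8% and 39.9%. In replicate 1 the counts were 49 of 143 single-copy genes and 38 of 82 genes with 2 to 5 copies. In replicate 2 they were 42 and 28. Genes that share a summit were counted separately, which the intervals do not allow for. There was no even rise with copy number, and no test was made. Among the isotypes, the groups of tRNA genes that carry the same amino acid, the share ran from 6 of 27 for glutamine (22.2%, 8.62% to 42.3%) to 16 of 29 for isoleucine (55.2%, 35.7% to 73.6%) over isotypes with at least 10 genes, and these intervals overlapped. In replicate 1 a summit was within 500 bp of 5 glutamine and 14 isoleucine genes, and in replicate 2 of 13 and 10. The order of these 2 isotypes was thus reversed in replicate 2. A tRNA-Cys gene was the nearest tRNA gene of 6 members, with pooled signals from 10.5 to 26.4. The 2 highest tRNA-Cys members were F42D1.t1 and F12D9.t6, and the next, F32B4.t1 on chromosome I, had a pooled signal of 16.4 with 8.42 in replicate 1 and 6.51 in replicate 2. This isotype was picked out after its values were seen.

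Other small RNA genes gave a scale for these values. A pooled summit lay within 500 bp of 39.9% of 346 snoRNA genes, 37.2% of 129 snRNA genes and 31.4% of 261 miRNA genes, and within 500 bp of the start of 29.8% of 19973 protein-coding genes. The share of tRNA genes, 37.9%, was in the range of the small RNA genes. In the pooled top 1000 were 4.76% of the regions beside tRNA genes, against 31.4% of 51 regions beside snRNA genes, 12.7% of 157 beside snoRNA genes, 6.98% of 86 beside miRNA genes, 4.78% of 2071 beside ncRNA genes and 4.46% of 5987 beside protein-coding starts. The last 3 shares lay inside the interval of the tRNA share, 2.31% to 8.58%, and no test between classes was made. Leading genes of these classes were sls-2.1, a spliced leader RNA gene, with a pooled signal of 82.9, the snoRNA gene F39B2.14 with 551, and cel-mir-5549 with 157. All are above the highest tRNA member at 70.5. Of the 20 nuclear rRNA genes 0 had a pooled summit within 500 bp, with an exact interval of 0% to 16.8%. Of rpr-1, the RNA of RNase P, and the Y RNA gene yrn-1, both polymerase III genes, rpr-1 had one, with signals of 23.5 in the pooled list and 18.01 in replicate 1 and none listed in replicate 2.

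The protein-coding genes of the tRNA pathway had 6 and 7 regions in the 2 lists below, too few to compare shares in the top 1000. That share was 4.46% of the regions beside all protein-coding starts. Among 24 genes for polymerase III and its factors, 5 (20.8%, 7.13% to 42.2%) had a pooled summit within 500 bp of the start. Of their 6 regions 0 were in the top 1000. The highest were brf-1, a subunit of TFIIIB, with 19.8, rpac-40, a subunit shared by polymerases I and III, with 18.3, and snpc-3.4, a subunit of the snRNA activating complex, with 16.5. Among 38 matched genes for aminoacyl-tRNA synthetases and tRNA processing, 7 (18.4%, 7.74% to 34.3%) had one, and 0 of their 7 regions were in the top 1000. The highest were the synthetase genes pars-1 for proline with 18.4, yars-1 for tyrosine with 15.9 and kars-1 for lysine with 14.9. Both shares were below the 29.8% of all protein-coding starts, and both intervals included it.

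Words taken from an earlier analysis of these files were also searched on both strands. CCTGCACA was within 150 bp of the summit in 0 of 210 members, which allows a share of up to 1.43% by the limit of 3 counts and 1.74% by the exact interval, and in 0.406% of other nuclear regions. ACCGTA was within 50 bp in 6 members (2.86%, 1.06% to 6.11%), against 2.63% of the others.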

How the data were processed

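The authors deposited narrowPeak region lists for each of 2 biological replicates, for both pooled, and as an IDR set of 92; each of the first 3 held 30000 regions of peaks and background. Per the deposited README texts, ChIP and control alignments entered each list. Which caller, aligner and threshold were used was not stated in the sources read here. Column 7, the signal, was used as deposited; depth is unknown. The ce10 lists were not used. Coordinates are ce11, counted from 1, and genes are from Ensembl release 115 (WBcel235, the same assembly). All 612 nuclear tRNA genes matched RefSeq, which gave the names, the sequences and the isotypes. For 5 of these genes no isotype was given. Of 43 symbols for synthetases and processing, 38 matched.

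Members, gene lists and words were chosen with earlier results of these data known. Named were the 20 members of highest signal, IDR members, those in the top 1000 of all lists, those at the 500 bp limit, and the 3 highest of each gene list. Other genes were chosen after their values were seen. Shares have 95% exact (Clopper-Pearson) intervals. There is 1 group, so no test was made. Printed tRNA genes exclude those with an identical copy on chromosome I. Alternatives changed the distance, the list, the chromosomes, the rule for the same place, and the counting of promoters and clusters. Distances and overlaps were checked on made-up positions. Python 3.11.15, numpy 2.4.6, pandas 2.3.3 and scipy 1.17.1 were used.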

Additional observations from a re-analysis of the deposited data

How the results depend on the processing

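The difference in median signal, members minus other regions, was 0.31 and stayed between 0.065 and 0.53 under all 10 alternatives. The lowest value left promoter regions out of the members only. With them left out of both groups the medians were 12.81 in members and 12.70 in the others. The differences without replicate 1 (0.13) and without replicate 2 (0.10) are on the scale of the single lists. Members numbered 78 within 100 bp (chosen after seeing the data), 130 within 250 bp, 352 within 1000 bp and 74 among the 10000 highest regions. In that stricter list the member median was 17.1, 55.4% were on X, 40.5% were in both replicates and 14.5% of tRNA genes had a region. Within 100 bp 60.3% were on X, against 45.1% of nuclear tRNA genes and 17.2% of other regions. Of the tRNA genes with a summit within 100 bp, 49 of 88 in replicate 1 and 43 of 92 in replicate 2 were on X. The share in both replicates was 28.2% within 100 bp, 24.6% within 250 bp, and 3.33% with the 10000 highest regions of each replicate (2.86% of other regions). The share of tRNA genes was 13.4%, 23.5% and 57.0% within 100, 250 and 1000 bp. On autosomes alone the top 1000 share was 1.80%. Without replicate 1 and without replicate 2 the member median was 6.52 and 9.07, on the scale of the single lists. The top 1000 share was then 2.88% and 2.39%, below the 3.27% and 3.26% of other regions, where the pooled list had it above. No paired analysis was possible because there is 1 group. Counts of reads are not in these lists, so depth sets an unknown limit. Without a control list, regions at tRNA genes in control DNA could not be counted.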
